A study of Mus musculus with 177 samples.

Results

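The antioxidant defence genes controlled in large part by the transcription factor NRF2 were followed in lung, brain and eye of newborn C57BL/6 mice. The set was named gene by gene: 35 genes, of which 32 had a probe set annotated to exactly 1 gene and could be measured, out of 19937 genes measured in the same way. Peroxiredoxins Prdx5 and Prdx6 and the NADPH-producing enzyme G6pdx had no such probe set and were not analysed here. The names came from known function and not from a measured value, although they were chosen with earlier results of these data known. A gene with more than 1 such probe set was read from the brightest of them in each tissue.

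The mice were 7 days old, and the design text counts 62 of them. In the first phase they breathed a gas with an oxygen fraction of 0.08 (hypoxia) or 0.21 (normoxia) for 120 min. For the next 30 min the hypoxia mice received 21, 40, 60 or 100% oxygen (written H21, H40, H60 and H100) and the normoxia mice 21 or 100% (N21 and N100). All mice then spent 150 min in air before the tissues were taken, so every value describes RNA after that recovery. All groups were of 1 strain, with no genetic alteration named, and N21 was the control that breathed air throughout. RNA was hybridised to 177 Affymetrix arrays, 1 array per sample.

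Before the results, 3 arrays were set aside. A lung H40 array correlated better with the brain arrays (r = 0.986) than with the other lung arrays (0.812), a brain H40 array was closer to eye (0.96 against 0.874), and an eye H40 array was closer to lung (0.957 against 0.881). That left 60 lung arrays (19 normoxia, 41 hypoxia), 58 brain arrays (18 and 40) and 56 eye arrays (18 and 38), with 9 to 12 arrays in a group. Results that change when the 3 arrays are kept are given with both values. Surfactant and other type 2 alveolar markers averaged 11.23 to 11.79 on the lung arrays, neuronal markers 11.29 to 11.84 on the brain arrays and lens markers 11.81 to 12.89 on the eye arrays (log2), as the tissue labels say.

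NRF2, encoded by Nfe2l2, is held in the cytoplasm by KEAP1, which marks it for destruction. Oxidants and electrophiles modify KEAP1, NRF2 accumulates, and it binds antioxidant response elements beside genes for glutathione synthesis, thioredoxin reduction, quinone reduction and NADPH supply. Superoxide dismutases turn superoxide into hydrogen peroxide, which catalase, glutathione peroxidases and peroxiredoxins then remove. In newborn lung, brain and retina this system is known for its part in the tolerance of high oxygen.

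A core of the antioxidant response element, TGACNNNGC on either strand, was searched in the promoter windows of RefSeq (GRCm38.p6, 250 bases before to 50 bases after a start). Windows were given for 30 of the 35 genes, and 9 of these 30 (30%) held a match, against 14% of all gene symbols with a window and 12.4% of all 32851 windows. The 8 measured genes with a match are shown for these letters alone, and whether a match goes with control by NRF2 was not tested. The core is in capitals with 9 bases on each side, read 5′ to 3′ on the strand that carries the core.
Nfe2l2 (chr2:75704886-75704912, minus strand): cagcccaccTGACTCCGCcatgccccg
Sod1 (chr16:90220697-90220723, minus strand): gcctgagtcTGACCACGCccaccttgg
Prdx1 (chr4:116685457-116685483, minus strand): tacgggggaTGACTCAGCgctttccct
Txnrd1 (chr10:82859105-82859131, minus strand): gtgtcagaaTGACAAAGCaaaaatcca
Srxn1 (chr2:152105543-152105569, minus strand): gtctcactcTGACCTAGCtgcccactg
Gclm (chr3:122245414-122245440, minus strand): cgtgagagtTGACGGTGCgcccgggag
Pgd (chr4:149166062-149166088, minus strand): tttcagagcTGACATTGCactgatcgg
Mgst1 (chr6:138140462-138140488, minus strand): cccgcctccTGACCGTGCcaagccccg
A match describes letters only, and elements outside these windows were not searched.

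The first question was what 100% oxygen did, taken as the mean of N100 and H100 minus the mean of N21 and H21. None of the 32 antioxidant genes was called as changed in lung, brain or eye. The test was limma on log2 values in each tissue, and a gene was called at a Benjamini-Hochberg adjusted p under 0.05 over all 19937 genes. The background was the same, since 0% of all genes tested were called in each tissue. At an unadjusted p under 0.05 there were 0 antioxidant genes in lung, 6 in brain and 1 in eye, all lower after 100% oxygen. These are 0%, 18.8% and 3.12% of the 32, beside 1.08%, 7.22% and 4.69% of all genes.

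**Figure D1:**
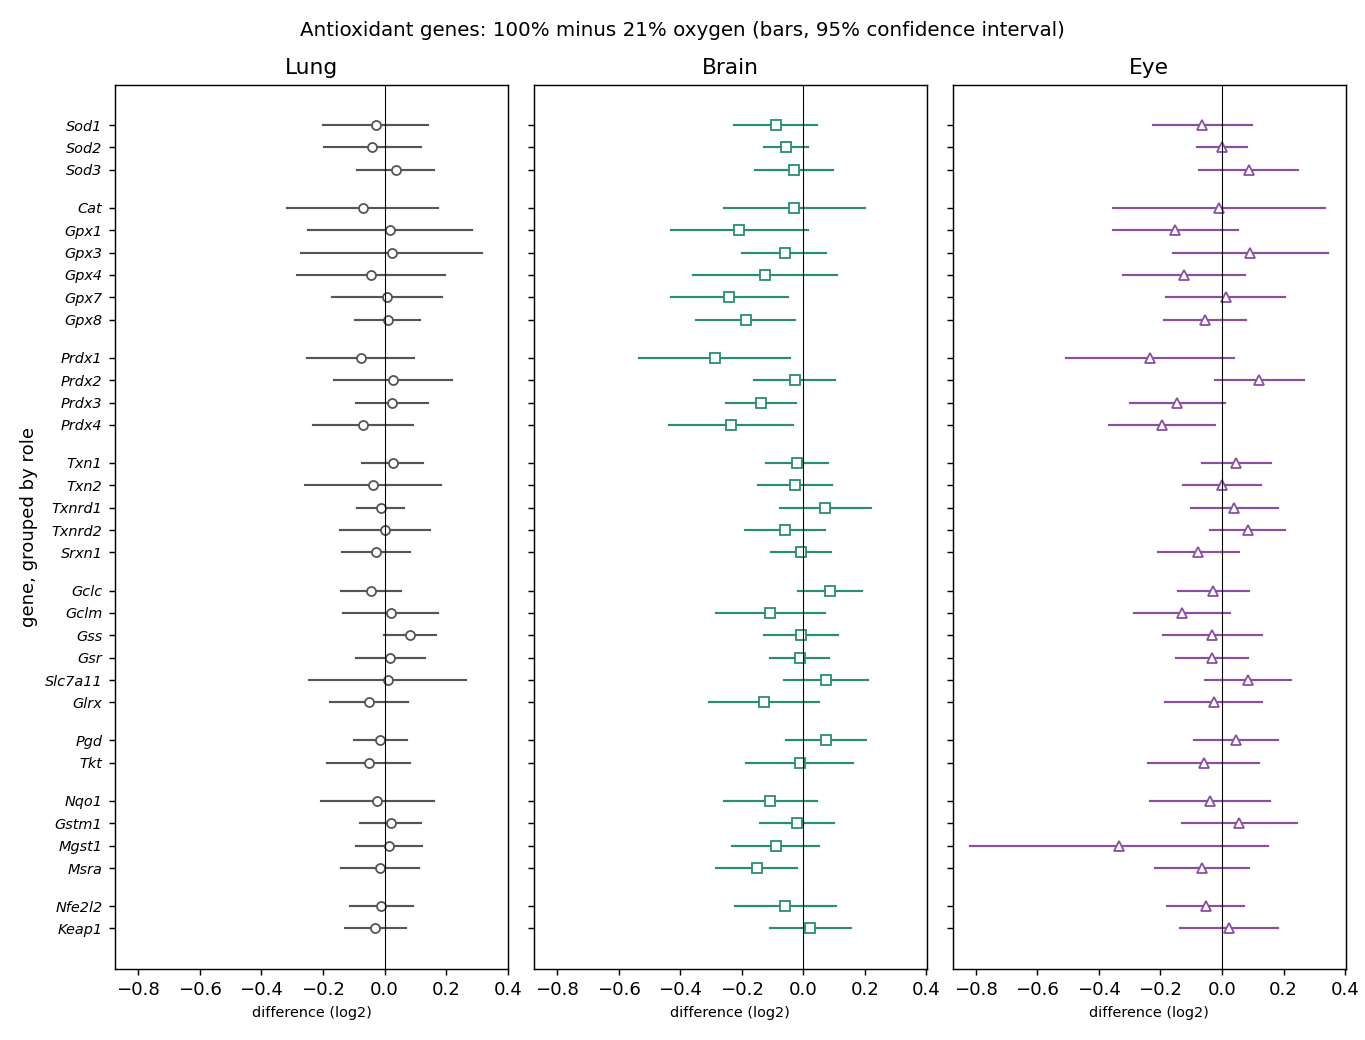
Difference between 100% and 21% oxygen (log2, x axis) for the 32 measured antioxidant genes, ordered by role from superoxide dismutases at the top to Nfe2l2 and Keap1 at the bottom, in lung, brain and eye. Symbols are the estimates and bars the 95% confidence intervals. All symbols are open because no gene was called, the lung estimates lie between -0.08 and 0.08, and 27 of the 32 brain estimates lie below 0.

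In lung, the organ that meets the gas first, the estimates were small in both directions. Of the 32 genes 15 were positive and 17 negative, beside 45.1% of all genes negative, with a median of -0.011 beside 0.007 over all genes. They ran from -0.08 for Prdx1, a cytosolic peroxiredoxin, to 0.08 for Gss, which makes the second step of glutathione synthesis (adjusted p = 1 for both). The 95% intervals of all 32 genes lay within 0.5 log2 units, a 1.41-fold change, on either side of 0. The intervals of 25 genes lay within 0.25, a 1.19-fold change. Nqo1 and Slc7a11 were among the dimmest 40% of lung genes, as were Nqo1 and Sod3 in brain and Sod3 in eye. The files do not say whether such probe sets were above background, so their intervals bound the signal of the probe set and not the RNA. The signs were unstable under other settings, with 15 to 23 of the 32 negative when single arrays were left out.

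The lung estimates of genes well known as NRF2 targets differed in precision. Txnrd1, the cytosolic thioredoxin reductase, had an estimate of -0.013 (95% confidence interval -0.09 to 0.06). Srxn1, which repairs overoxidised peroxiredoxins, had -0.03 (-0.14 to 0.08). Nqo1, a quinone reductase and dim in this tissue, had -0.02 (-0.21 to 0.16). Gclm and Gclc, the 2 subunits of the enzyme that starts glutathione synthesis, had 0.02 (-0.13 to 0.17) and -0.04 (-0.14 to 0.06). Slc7a11, the cystine importer, also dim, was the least precise of these at 0.010 (-0.25 to 0.27). Nfe2l2 itself stood at -0.010 (-0.11 to 0.09) and Keap1 at -0.03 (-0.13 to 0.07).

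On the arrays, lung Gss spanned 7.6 to 8.04 with a median of 7.78 in N21, and 7.69 to 8.11 with the same median of 7.78 in N100. After hypoxia it spanned 7.54 to 7.81 (median 7.67) in H21 and 7.66 to 7.94 (median 7.83) in H100. The groups overlapped throughout, and the H21 arrays held the lowest median of the 4. Lung Gclc medians were 8.88 in N21, 8.93 in N100, 8.99 in H21 and 8.82 in H100, within arrays that ran from 8.53 to 9.36. Lung Prdx1 medians were 10.00, 9.84, 9.84 and 9.91 in the same order, within 9.31 to 10.42. None of these 3 genes separated the gases.

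In brain the estimates leaned one way. Of the 32 genes 27 were lower after 100% oxygen (84.4%), beside 51.2% of all genes, and the median was -0.06 beside -0.003. No gene passed the test. By role, negative estimates were found in 6 of 6 genes of catalase and the glutathione peroxidases, 4 of 4 peroxiredoxins, 3 of 3 superoxide dismutases, 4 of 5 thioredoxin genes, 4 of 6 glutathione genes, 1 of 2 NADPH genes, 4 of 4 conjugation, quinone and repair enzymes and 1 of 2 regulators. The list's lean is a description, since genes on one array are not independent. It fell to 21 of 32 with array quality weights, with 55.4% of all genes negative there and a list median of -0.03, and to between 24 and 27 when single arrays were left out. It stayed at 27 of 32 in the first record series, where 55.6% of all genes were negative. Without the arrays of low correlation it was 28 of 32, with 56.3% of all genes negative. With the replicate numbers as a block it was 23 of 32, with 49.2% of all genes negative.

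The 3 brain genes with the smallest p were Gpx7, Prdx3 and Prdx1. Gpx7, a peroxidase of the endoplasmic reticulum, spanned 6.45 to 7.5 (median 6.84) on the 18 arrays with 21% oxygen and 6.12 to 7.04 (median 6.70) on the 20 with 100%. The difference was -0.24 ± 0.10 (SE; unadjusted p = 0.014, limma adjusted p = 0.68). The N100 arrays had the lowest median of the 6 groups at 6.49, and the N21 median was 6.84.

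Prdx3, the mitochondrial peroxiredoxin, spanned 10.10 to 10.74 (median 10.26) with 21% oxygen and 9.95 to 10.54 (median 10.21) with 100%. Its difference was -0.14 ± 0.06 (SE; limma adjusted p = 0.68). Prdx1 spanned 9.11 to 10.78 (median 9.36) with 21% and 8.50 to 9.61 (median 9.29) with 100%, a difference of -0.29 ± 0.12 (SE; limma adjusted p = 0.68). The Prdx1 medians lay closer together than the means, and N21 replicate 7 (10.78) and an H21 array (10.56) stood above the other arrays. Without the 5 brain arrays of low correlation, both of these among them, the Prdx1 difference was -0.14 and that of Prdx3 -0.09, while that of Gpx7 was -0.29.

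**Figure D2:**
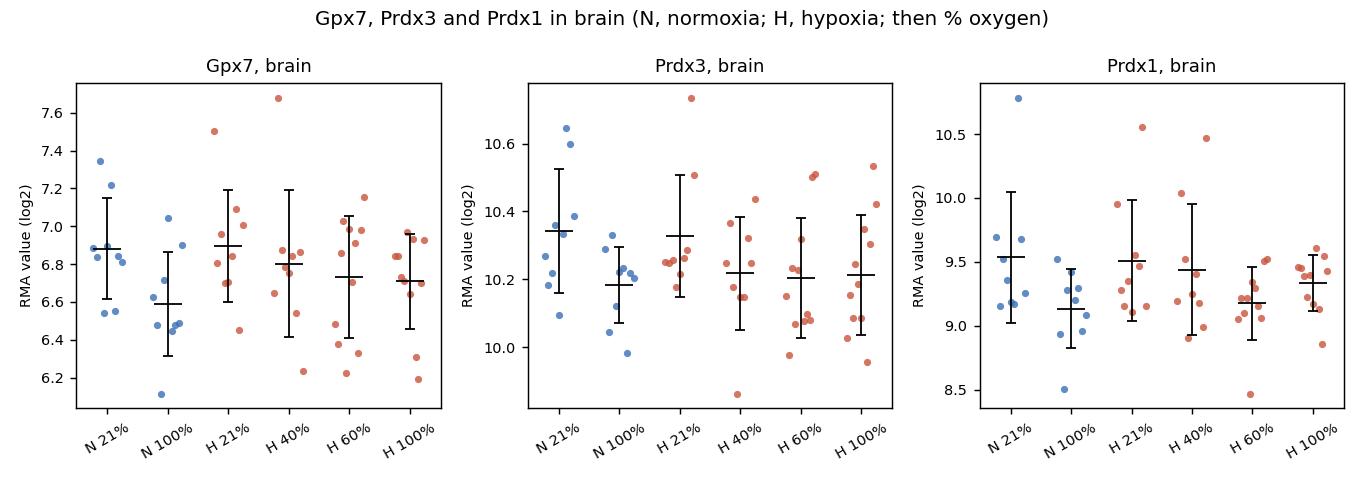
RMA values (log2, y axis) of Gpx7, Prdx3 and Prdx1 on each brain array in the 6 groups, normoxia (N, blue) and hypoxia (H, red), with the oxygen given afterwards on the x axis. Points are arrays, black lines the group mean and bars 1 SD. The groups overlap in all 3 genes, and single arrays of Prdx1 in N21 (10.78), H21 (10.56) and H40 (10.47) lie above the rest.

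The remaining brain genes under an unadjusted 0.05, named here because their values were seen, were Prdx4, Gpx8 and Msra. Prdx4, the peroxiredoxin of the secretory pathway, differed by -0.24 ± 0.10 (SE), Gpx8, another peroxidase of the endoplasmic reticulum, by -0.19 ± 0.08, and Msra, which reduces oxidised methionine, by -0.15 ± 0.07. Each had a limma adjusted p of 0.68. The NRF2 targets given above for lung stood in brain at 0.07 for Txnrd1, -0.008 for Srxn1, -0.11 for Nqo1, -0.11 for Gclm, 0.09 for Gclc and 0.07 for Slc7a11. None of these passed the test.

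The oxygen comparison in brain was then taken apart. N100 minus N21 was negative in 26 of the 32 genes (median -0.07), beside 45.9% of all genes. Brain N100 had 8 arrays in the first record series and 0 in the third, and N21 had 5 and 3. With the series as a block 27 of 32 were negative, beside 53.3% of all genes, and in the first series alone 27 of 32, beside 53.7%. In the main fit 6 genes lay under an unadjusted p of 0.05 (18.8%, beside 4.04% of all genes), and none was called. The 2 with the smallest p were Gpx8 (-0.29 ± 0.12, SE; limma adjusted p = 0.95) and Sod1, the cytosolic superoxide dismutase (-0.23 ± 0.10; adjusted p = 0.95). H100 minus H21 was negative in 21 of 32 (median -0.02; 54.8% of all genes), with 1 gene under 0.05 (3.12%, beside 4.64% of all genes), Msra at -0.19 ± 0.09 (adjusted p = 0.89). The interaction, the test of whether the oxygen effect differed between hypoxia and normoxia, called no antioxidant gene and 0% of all genes. Its smallest p in brain was that of Sod1 (0.29 ± 0.14; adjusted p = 1).

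In the eye 11 genes were positive and 21 negative, with 45.5% of all genes negative (median -0.03 beside 0.009 over all genes). With array quality weights 16 of 32 were negative, beside 55.2% of all genes. In the first record series it was also 16 of 32, beside 56.9% of all genes. Without the arrays of low correlation it was 24 of 32, beside 55.3% of all genes. With quantile normalization a second time it was 22 of 32, beside 48.7%. Leaving out single arrays gave 18 to 22 of 32. Prdx4 was the gene with the smallest p, at -0.19 ± 0.09 (SE; limma adjusted p = 0.89). It spanned 8.38 to 9.67 (median 9.02) on the arrays with 21% oxygen and 8.55 to 9.22 (median 8.94) on those with 100%. Prdx3 followed at -0.14 ± 0.08, and Prdx1 at -0.23 ± 0.14 (adjusted p = 0.89 for both). Prdx1 spanned 8.98 to 11.10 with 21% and 8.93 to 9.92 with 100%, with medians of 9.62 and 9.54. The Prdx1 estimate turned to 0.035 with array quality weights and to 0.058 in the first record series, and N21 replicate 7, at 11.10, was the highest array in this tissue too.

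The probe sets used for Prdx1 and for the related Prdx2 carry a limit. Both genes have 2 probe sets of 1 gene, and the brighter one of each has an ID that lies among those of genes on another chromosome (20 of 20 neighbours), so it may read a copy elsewhere. The other Prdx1 probe set gave -0.20 ± 0.09 in brain (limma adjusted p = 0.67) and -0.20 ± 0.11 in eye (adjusted p = 0.89) for the same oxygen comparison. Its sign was that of the brighter one in both tissues.

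The graded part of the design asked whether the antioxidant genes followed the oxygen given after hypoxia. The least-squares line through H21, H40, H60 and H100, expressed as the change from 21 to 100%, called no antioxidant gene and 0% of all genes in any tissue. At an unadjusted p under 0.05 there were 2 higher and 0 lower in lung, 0 and 2 in brain, and 2 and 2 in eye. These are 6.25%, 6.25% and 12.5% of the 32, beside 1.74%, 6.45% and 5.71% of all genes. In lung these were Gpx8 (0.17 ± 0.07, SE) and Gss (0.11 ± 0.06), each with a limma adjusted p of 1. Lung Gpx8 medians were 9.68 in H21, 9.83 in H40, 9.87 in H60 and 9.96 in H100, inside arrays that ran from 9.54 to 10.14. In N21, which saw neither hypoxia nor added oxygen, the Gpx8 median was 9.92. In brain the smallest p was that of Gpx1, the cytosolic glutathione peroxidase (-0.35 ± 0.14; adjusted p = 0.75), and in eye that of Txnrd2, the mitochondrial thioredoxin reductase (0.18 ± 0.08; adjusted p = 0.83).

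The second question was what the hypoxia itself left behind, as the mean of the 4 hypoxia groups minus the mean of both normoxia groups. Only 1 antioxidant gene was called, and in 1 tissue: Gpx3, the secreted glutathione peroxidase of plasma and extracellular fluid, rose in lung. That is 3.12% of the 32, beside 1.66% of all genes called in lung (331 of 19937), 1.05% higher and 0.607% lower. In brain and eye no antioxidant gene was called, beside 0.0853% of all genes in each (0.0803% higher and 0.00502% lower in brain, 0.0652% and 0.0201% in eye). At an unadjusted p under 0.05 there were 2 higher and 2 lower in lung, 0 and 1 in brain, and 0 and 2 in eye. These are 12.5%, 3.12% and 6.25% of the 32, beside 9%, 3.18% and 5.02% of all genes. The list medians of 0.023 in lung, -0.003 in brain and 0.007 in eye lay near those of all genes, which were 0.009, -0.003 and 0.003.

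**Figure D3:**
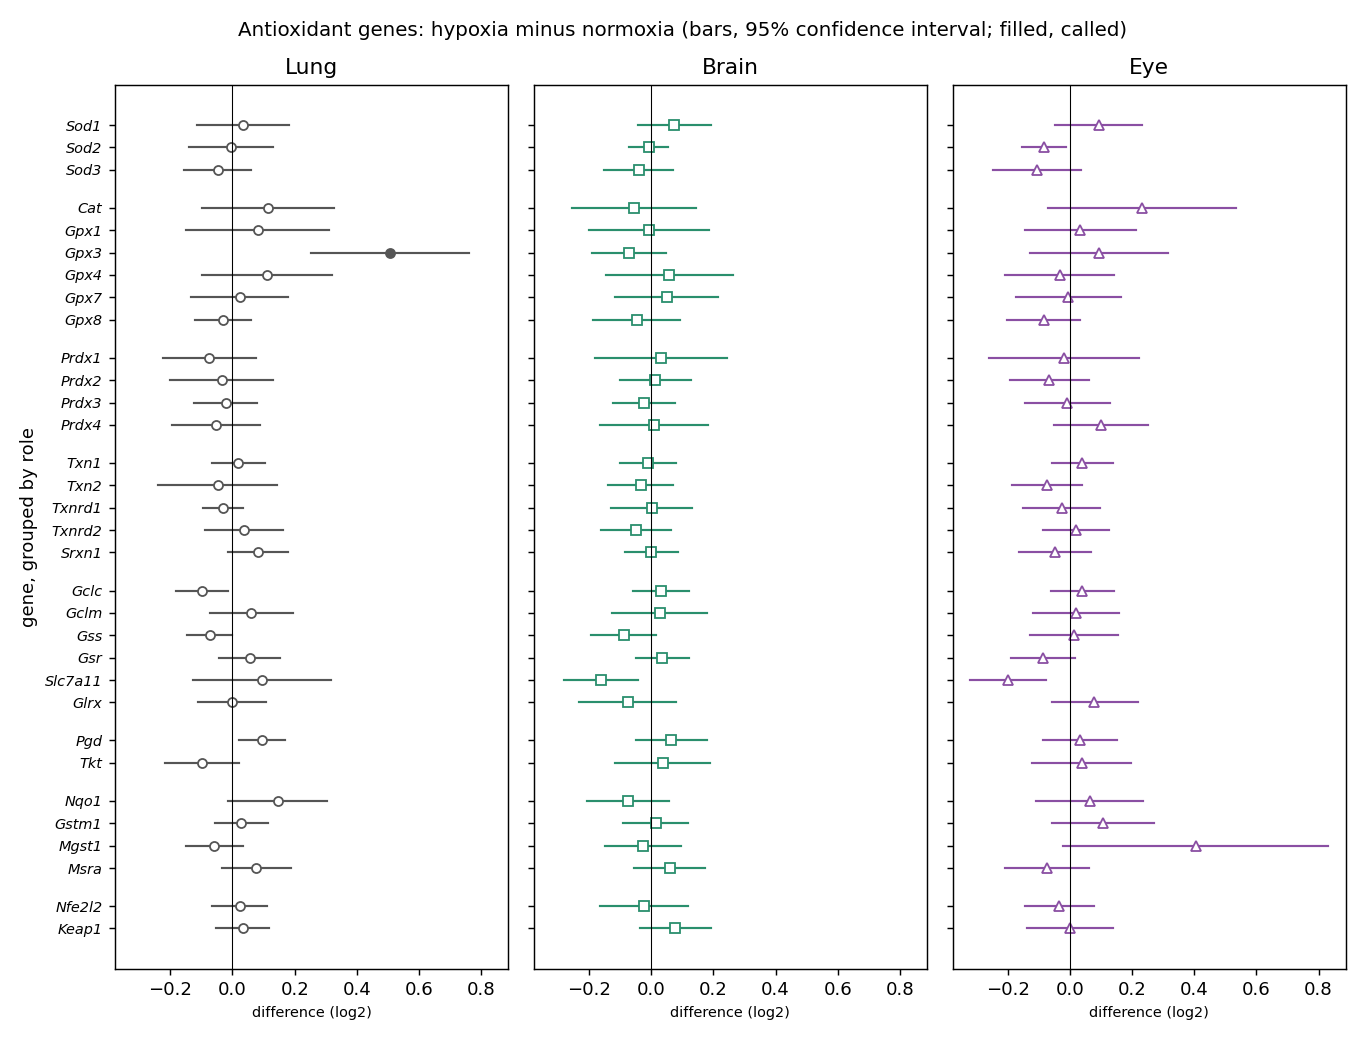
Difference between all hypoxia and all normoxia groups (log2, x axis) for the 32 measured antioxidant genes in lung, brain and eye, ordered by role. Symbols are estimates, bars 95% confidence intervals, and a filled symbol marks a gene called at an adjusted p under 0.05. Gpx3 in lung, at 0.51, is the only filled symbol.

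Gpx3 spanned 7.84 to 9.38 (median 8.43) on the 19 normoxia lung arrays and 8.05 to 9.91 (median 9.0) on the 41 hypoxia arrays. The 6 group medians were 8.36 in N21, 8.49 in N100, 8.95 in H21, 9.21 in H40, 8.85 in H60 and 9.06 in H100. All 4 hypoxia medians were above both normoxia medians, and 36 of the 41 hypoxia arrays lay above the normoxia mean. The arrays overlapped all the same, since 8 hypoxia arrays exceeded the highest normoxia array.

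The Gpx3 difference was 0.51 ± 0.13 (SE; 95% confidence interval 0.25 to 0.76), a 1.42-fold higher level, with a limma adjusted p of 0.018. It was called in all 60 fits that left out 1 lung array, with adjusted p between 0.0058 and 0.045. With the lung array that resembles brain kept in, it was 0.45 and was not called (adjusted p = 0.21). In the 38 arrays of the first record series alone, a run of consecutive sample records described with the processing, it was 0.42 and not called (adjusted p = 0.41). The differences within the 3 series were 0.42 (25 hypoxia and 13 normoxia arrays), 0.14 (5 and 2) and 0.81 (11 and 4), and with the series as a block it was 0.50 (adjusted p = 0.013).

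Gpx3 was higher than in N21, which all 4 comparisons share, after each oxygen level. It stood 0.64 ± 0.21 (SE) higher in H21, 0.70 ± 0.21 in H40, 0.45 ± 0.20 in H60 and 0.54 ± 0.20 in H100. None of the 4 passed on its own, with limma adjusted p of 0.44, 0.51, 1 and 1, where 0.0502%, 0.00502%, 0% and 0.0201% of all genes were called. The oxygen contrast for lung Gpx3 was 0.02 ± 0.15 (95% confidence interval -0.27 to 0.32).

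In bulk tissue more cells of a type and more RNA per cell cannot be told apart. Beside the Gpx3 rise, the mean of 10 neutrophil markers was 0.33 higher in the hypoxia lungs (5.60 to 6.91 in normoxia, 5.82 to 7.34 in hypoxia), with 1 of the 10 called. That of 6 brown fat markers was -0.42 (5.13 to 7.86 in normoxia, 5.01 to 8.67 in hypoxia). Erythroid markers, 10 of the 19 listed being measured, differed by 0.14 (6.53 to 8.06 in normoxia, 6.70 to 7.72 in hypoxia), with 0 of the 10 called. Type 2 alveolar markers differed by 0.05, macrophage markers by -0.02 and skeletal muscle markers by 0.03. The part of these cells in the Gpx3 result was not tested.

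**Figure D4:**
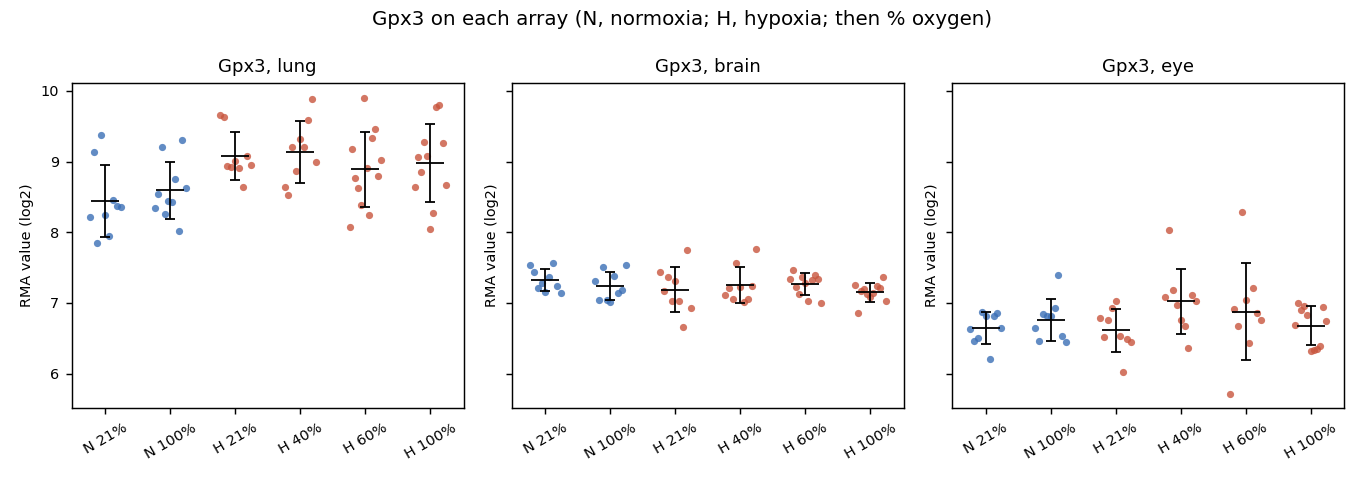
Gpx3 RMA values (log2, y axis) on each array of lung, brain and eye in the 6 groups, normoxia (N, blue) and hypoxia (H, red), with the oxygen given afterwards on the x axis. Points are arrays, black lines the group mean and bars 1 SD. The means of the 4 hypoxia groups lie above both normoxia means in lung, and the arrays of the groups overlap in all 3 tissues.

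In brain Gpx3 spanned 7.01 to 7.56 (median 7.26) in normoxia and 6.66 to 7.76 (median 7.21) in hypoxia, a difference of -0.07 ± 0.06 (SE; limma adjusted p = 1). In eye it spanned 6.21 to 7.40 (median 6.73) and 5.72 to 8.29 (median 6.78), a difference of 0.09 ± 0.11 (adjusted p = 1). The hypoxia effect was larger in lung than in brain by 0.58 ± 0.15 (limma adjusted p = 0.039 over all genes in a fit of 18 groups, where 0.451% of all genes were called). That call was lost with the arrays of another tissue kept (0.56; adjusted p = 0.33) and in the first record series (0.49; adjusted p = 0.84). Lung minus eye was 0.41 ± 0.15 and not called (adjusted p = 0.39; 0.396% of all genes called). No other antioxidant gene was called as differing between tissues in its hypoxia effect. The labels cannot tie arrays of different tissues to a mouse, so this fit treated them as independent. The design text counts 62 mice for 177 arrays, so shared mice are likely, and the SE and p do not allow for them.

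The other hydrogen peroxide removers of lung gave no call after hypoxia. Catalase (Cat) differed by 0.11 ± 0.11 (SE), Gpx1 by 0.08 ± 0.12 and Gpx4, which reduces lipid peroxides, by 0.11 ± 0.10. All 4 measured peroxiredoxins had small negative estimates, from -0.07 for Prdx1 to -0.02 for Prdx3. The 3 superoxide dismutases lay between -0.05 for the extracellular Sod3 and 0.03 for Sod1. Of the 32 lung intervals, 31 lay within 0.5 log2 units on either side of 0, Gpx3 being the exception.

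Pgd and Gclc had the smallest p in lung after Gpx3. Pgd, which makes NADPH in the pentose phosphate pathway, spanned 9.47 to 10.03 (median 9.73) in normoxia and 9.55 to 10.01 (median 9.84) in hypoxia. It stood 0.10 ± 0.04 (SE) higher with 33 of 41 hypoxia arrays above the normoxia mean, and missed the threshold (limma adjusted p = 0.27). With array quality weights it was called, at 0.12 and an adjusted p of 0.019, where 834 genes in all were called. Gclc spanned 8.61 to 9.36 (median 8.89) in normoxia and 8.43 to 9.09 (median 8.81) in hypoxia, a difference of -0.10 ± 0.04 (adjusted p = 0.41). Its H40 group was the lowest, with arrays of 8.43 to 8.82 around a median of 8.73.

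Slc7a11 had the smallest p of the set in both brain and eye. In brain it spanned 8.56 to 9.50 (median 9.20) in normoxia and 8.48 to 9.44 (median 9.04) in hypoxia, a difference of -0.16 ± 0.06 (SE; limma adjusted p = 1). In eye it spanned 7.78 to 8.50 (median 8.25) in normoxia and 7.35 to 8.38 (median 8.10) in hypoxia, a difference of -0.20 ± 0.06 (adjusted p = 0.38), with 6 of 38 hypoxia arrays above the normoxia mean. Neither passed the test. The lowest eye median was that of H21 at 7.95, beside 8.24 in N21, and H60 came nearest to the controls at 8.18. In lung the Slc7a11 estimate was 0.09 ± 0.11.

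In brain the next genes were Gss at -0.09 ± 0.05 (SE) and Keap1 at 0.08 ± 0.06 (limma adjusted p = 1 for both). Brain Gss medians were 7.06 in normoxia and 6.99 in hypoxia, within 6.64 to 7.48. Brain Keap1 medians were 8.32 and 8.38, within 7.57 to 8.71. The brain intervals of all 32 genes lay within 0.5 log2 units of 0.

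In eye Sod2, the mitochondrial superoxide dismutase, was the steadiest of the set, with a within-group SD of 0.107. It spanned 10.16 to 10.59 (median 10.40) in normoxia and 10.07 to 10.47 (median 10.30) in hypoxia, a difference of -0.08 ± 0.03 (SE; limma adjusted p = 0.85).

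Mgst1, a membrane-bound glutathione transferase, was the most variable gene of the set in eye, with a within-group SD of 0.78. It spanned 7.68 to 10.46 (median 8.23) in normoxia and 7.64 to 10.66 (median 8.45) in hypoxia. The difference of 0.40 ± 0.21 (95% confidence interval -0.02 to 0.83; adjusted p = 1) was small beside that spread. H21 had the highest median, 9.36. Every group had its lowest array between 7.64 and 7.97 and its highest between 9.23 and 10.66. Of all genes tested in eye, Bpifa6, looked up after its values were seen, had both the largest hypoxia difference (1.36) and the lowest oxygen difference (-1.50), with the signs of Mgst1. Eye skeletal muscle markers differed by -0.26 between hypoxia and normoxia (10.23 to 11.08 in normoxia, 9.38 to 11.03 in hypoxia) and photoreceptor markers by -0.15. The part of these markers in the eye values was not tested.

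**Figure D5:**
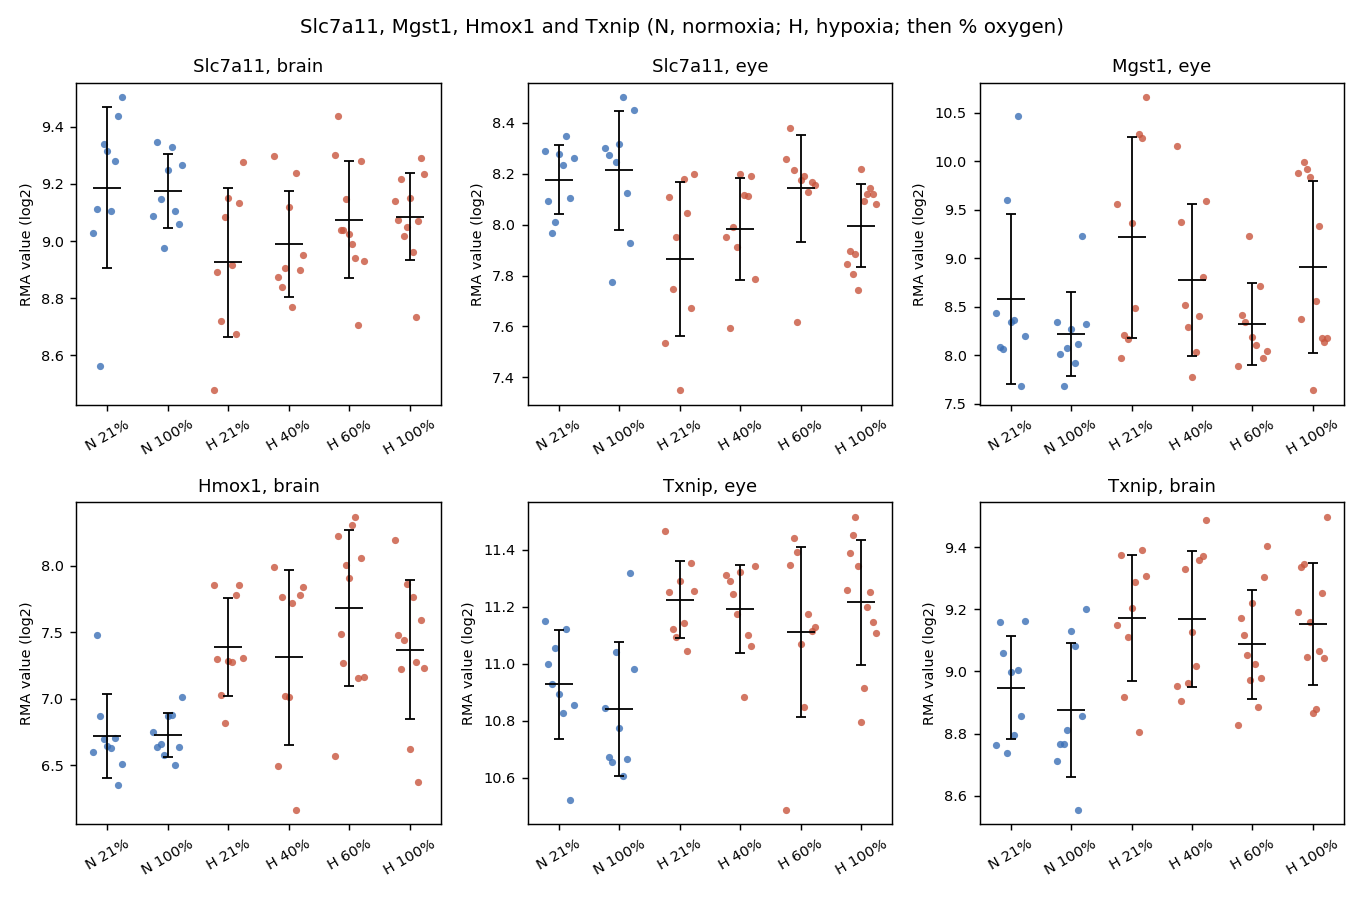
RMA values (log2, y axis) on each array in the 6 groups for Slc7a11 in brain and eye, Mgst1 in eye, Hmox1 in brain and Txnip in eye and brain, with the oxygen given afterwards on the x axis. Points are arrays (normoxia blue, hypoxia red), black lines the group mean and bars 1 SD. Hmox1 in brain and Txnip in eye were called, with 20 of 40 and 11 of 38 hypoxia arrays above the highest normoxia array.

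Of the other 9 comparisons in each tissue, those within hypoxia or normoxia and those of single groups, none called, without weights, an antioxidant gene. The comparisons that called any gene at all were H100 minus N100 (0.105% in lung, 0.01% in brain), H21 minus N21 (0.0502% in lung, 0.00502% in eye), H40 minus N21 and H100 minus N21 in lung. In H100 minus N100 the eye had 3 antioxidant genes higher and 5 lower at an unadjusted p under 0.05 (25%, beside 8.7% of all genes), led by Sod3 (-0.31 ± 0.11, SE; limma adjusted p = 0.45) and Nfe2l2 (-0.20 ± 0.09; adjusted p = 0.51). With array quality weights this comparison called 3 of the set, Mgst1, Pgd and Slc7a11, and 432 genes in all. In lung, H21 minus N21 had Gpx8 at -0.21 ± 0.08 (adjusted p = 0.57) after Gpx3. The smallest unadjusted p of the lung interaction was also that of Gpx8 (0.34 ± 0.10; adjusted p = 1).

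A further 53 genes of glutathione, thioredoxin, quinone and heme handling and of NRF2 control were listed beside the set, and 50 were measured. After 100% oxygen none of the 50 was called in any tissue. After hypoxia 1 was called in brain, 1 in eye and 0 in lung. In lung 9 were higher and 3 lower at an unadjusted p under 0.05 (24% of 50, beside 9% of all genes). The 2 with the smallest p there were Sesn2 and Sesn1, stress-induced sestrins, at 0.16 ± 0.05 (SE; limma adjusted p = 0.087) and 0.15 ± 0.05 (adjusted p = 0.11).

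The gene called in brain was Hmox1, heme oxygenase 1, an NRF2 target that also answers to heme and hypoxia. It spanned 6.35 to 7.48 (median 6.65) on the 18 normoxia arrays and 6.17 to 8.37 (median 7.46) on the 40 hypoxia arrays, of which 20 exceeded the highest normoxia array. It rose by 0.72 ± 0.13 (SE; limma adjusted p = 0.0017), while its oxygen estimate was -0.008 ± 0.15. In the first record series it was 0.66 and not called (adjusted p = 0.14). In lung and eye Hmox1 differed by -0.07 ± 0.07 and -0.12 ± 0.09 and was not called.

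The gene called in eye was Txnip, the inhibitor that binds thioredoxin. It spanned 10.52 to 11.32 (median 10.87) in normoxia and 10.49 to 11.51 (median 11.22) in hypoxia, with 34 of 38 hypoxia arrays above the normoxia mean. It rose by 0.30 ± 0.06 (SE; limma adjusted p = 0.015), and in the first record series it was 0.29 and not called (adjusted p = 0.51). In brain it stood 0.23 ± 0.06 higher and missed the threshold (adjusted p = 0.08), and in lung it differed by 0.06 ± 0.06. Thioredoxin itself (Txn1) differed by 0.04 ± 0.05 in eye and -0.010 ± 0.04 in brain.

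The 8 genes whose promoter sequences are printed above gave no call in any tissue or comparison without array weights; with them Pgd was called in lung after hypoxia, and Pgd and Mgst1 in eye in H100 minus N100. After 100% oxygen in lung, Nfe2l2, Sod1, Prdx1, Txnrd1, Srxn1, Gclm, Pgd and Mgst1 lay between -0.08 and 0.02. Gpx3, the gene of the set called after hypoxia, had 0 matches of TGACNNNGC in its window and 0 of ACGTG, which 19.6% of all windows hold. ACGTG is a form of the core bound by hypoxia-inducible factors, and other forms of that core were not searched. These counts say only which letters the windows contain.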

How the data were processed

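The deposited values are RMA expression on a log2 scale from Affymetrix mouse gene arrays, 34760 probe sets on 177 arrays. RMA is named in the submitters' processing notes, with no version, and the build behind the probe annotation is not given in the sources used here. RMA sets arrays to a common distribution, so a change shared by all genes cannot be seen. Per the labels' protocols, RNA was extracted with a kit for blood after a Ficoll step, although the design describes solid organs. Exactly 1 gene was given for 21640 probe sets, several for 1321 and none for 11799. Of the first, 21553 were matched to RefSeq by Entrez ID.

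The limma package 3.58.1 (R 4.3.3) fitted the 6 groups of each tissue without covariates, and 11 contrasts were tested two-sided with Benjamini-Hochberg adjustment over 19937 genes. Fits were tested on simulated data. Separate arrays count as replicates; the labels do not say which arrays of different tissues share a mouse. Precision is limited by the number of arrays. Tissues were fitted separately, so levels are not compared between tissues or between probe sets. Sample records fall into 3 series of consecutive records; the labels do not say what these reflect. Between the first and the later series 56.5% of lung, 44.8% of brain and 38.7% of eye genes differed (18, 9 and 12 of the 32 antioxidant genes), and the groups are unevenly spread over the series. An array was of low correlation when it lay more than 3 median absolute deviations below its tissue's median.

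Genes described in full are those called and, per tissue, the 3 with the smallest unadjusted p in the hypoxia and the oxygen comparison; in other comparisons, the 2 with the smallest p. The members and lists were chosen with earlier results of these data known. The alternatives are given in the closing section.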

Additional observations from a re-analysis of the deposited data

Results flagged for a closer look

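Single arrays stood apart from the other 8 of their group in 10 of 83 combinations of a named gene and a group. The check was Dixon's test at the 95% level, where chance gives about 5%. Groups of 11 or 12 arrays were not checked, which were H100 in every tissue and H60 in lung and brain. In brain, N21 replicate 7 was highest for Prdx1 at 10.78 (others 9.15 to 9.69) and lowest for Keap1 at 7.57 (others 8.17 to 8.71). In eye, the array numbered N21 replicate 7 was also highest for Prdx1, at 11.1 (others 9.06 to 9.79), and H40 replicate 8 read 10.78 (others 9.20 to 9.93). Both N21 arrays and this H40 array are among the arrays of low correlation with their tissue, and their part in the Prdx1 values was not tested further than by leaving them out.

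In brain, H40 replicate 2 had Gpx7 at 7.68 (others 6.24 to 6.88), H40 replicate 4 had Prdx3 at 9.86 (others 10.15 to 10.44), N21 replicate 3 had Slc7a11 at 8.56 (others 9.03 to 9.50) and N21 replicate 2 had Hmox1 at 7.48 (others 6.35 to 6.87). In eye, N100 replicate 8 had Mgst1 at 9.23 (others 7.68 to 8.34) and H60 replicate 4 had Slc7a11 at 7.62 (others 8.13 to 8.38).

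The hypoxia effect on Gpx3 differed between lung and brain by 0.58 on the log2 scale, by the test of the difference itself (limma adjusted p = 0.039). The call was lost with the arrays of another tissue kept (0.56; adjusted p = 0.33) and in the first record series (0.49; adjusted p = 0.84).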

How the results depend on the processing

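Counts of called antioxidant genes kept within 1.5 times of the main count in 480 of 486 results under an alternative. That share says little, since a count of 0 matched a main count of 0. Of the 39 main counts only 2 were above 0, that of lung after hypoxia and that of lung and brain differing, at 1 each. Of 267 named values under an alternative, 258 were counted as kept, for most by the same direction and side of the threshold. The Gpx3 values within each record series had no test. They were counted as kept for lying within 1 SD of the normoxia arrays from the main value. Most named values were not called in the main fit, so staying uncalled says little. With array quality weights the lung hypoxia count was 2 (Gpx3 and Pgd, the latter 0.12) and the eye count of H100 minus N100 was 3 (Mgst1, Pgd and Slc7a11; 432 genes in all). In the first record series alone the lung hypoxia count was 0 (23 genes in all) and the count of lung and brain differing was 0, and the values of Gpx3 (0.42), its difference between lung and brain (0.49), Hmox1 (0.66) and Txnip (0.29) lost their calls; fewer arrays were fitted there. With the arrays of another tissue kept, both counts were 0 as well, with Gpx3 at 0.45 and its difference between lung and brain at 0.56. Prdx1 in eye after 100% oxygen turned from -0.23 to 0.035 with weights and to 0.058 in the first series; the cause was not tested. Leaving out 1 array at a time, lung Gpx3 ran from 0.47 to 0.56, brain Hmox1 from 0.69 to 0.76 and eye Txnip from 0.28 to 0.33, each called in every fit. Replicate numbers were not taken to pair the samples. Of the same-number pairs, 77 of 139 correlated above 0.1 in lung, 73 of 134 in brain and 52 of 131 in eye. The rule for pairing asked this of every pair, which is too strict to refute pairing, so the question stays undecided. Median correlations were 0.13, 0.13 and 0.03 for equal numbers, against -0.02, -0.02 and -0.03 for others, and 0.15, 0.12 and 0.06 within a record series. With the replicate block Gpx3 was 0.51 (limma adjusted p = 0.022), and no call changed. The other settings were quantile normalization a second time and a filter that drops the 40% of genes with the lowest means. Others were the record series as a block, no arrays of low correlation, sex as a covariate, every probe set and only the groups compared. Chosen after seeing the data were the other probe set of Prdx1, Prdx2 and Gpx4 and Gpx3 within each record series. Sex was inferred from Xist and genes of the Y chromosome on the arrays, not taken from a sample label. It was uneven over the groups, with a female profile in 8 of 9 lung N21 arrays and 5 of 9 lung H21 arrays.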
